A study of Mus musculus with 2 samples.

Results

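Ddit4, Txnip, Pik3ip1, Tsc22d3, Btg1, Btg2, Tob1, Sesn1 and Rgcc are 9 genes tied to the resting state of lymphocytes and to low energy or nutrient supply. They were compared here between CD8+CD122+ and CD8+CD122- spleen cells of the mouse. The genes were chosen by their CD8+CD122+ over CD8+CD122- ratios on these same arrays, so the ratios are given as a description and carry no test. A probe belonged to the set if its name in a scanner file was the symbol of a member or an older alias, controls aside. This gave 17 of the 41174 probes, with at least 1 probe for each of the 9 genes, of 19096 genes named on the arrays. Rgcc was listed as 1190002H23Rik, Pik3ip1 as 1500004A08Rik, Tsc22d3 as Dsip1, and 1 Btg1 probe as the expressed sequence tag AI426953. A probe was kept if the same population was well above background on both arrays, which left 16 of the 17 member probes, for 8 genes, among 30794 probes in all.

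CD8+CD122+ and CD8+CD122- cells were obtained from the spleens of C57BL/6 mice by sorting, and their amplified messenger RNA was hybridised as pairs to 2 two-colour arrays. On array 1 the CD8+CD122+ RNA was in Cy5 and the CD8+CD122- RNA in Cy3, and on array 2, a second trial, the dyes were exchanged. CD122 is the beta chain shared by the receptors for interleukin 2 and interleukin 15. The labels give no age, sex, number of mice or pooling, and whether the second trial drew on other mice is not stated. The spread between the n = 2 arrays may therefore be technical.

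A resting T cell keeps its messenger RNA turnover, growth signalling and glucose uptake low until its antigen receptor is engaged, and several genes that hold this state are switched off on activation. BTG and TOB proteins bring the CCR4-NOT deadenylase to messenger RNAs, whose poly(A) tails are then shortened. Pik3ip1, Ddit4 and the sestrins restrain phosphoinositide 3-kinase and the growth kinase complex mTORC1, Txnip restrains glucose uptake, and Tsc22d3 is a glucocorticoid response gene. FOXO transcription factors, which are active when AKT is not, are known activators of several such genes, and Txnip is known for induction by glucose through a carbohydrate response element.

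The promoter sequences below, from RefSeq (GRCm38.p6, the 250 bases before the annotated start, 5′ to 3′ on the gene's strand), show which members carry the letters of those 2 elements. RefSeq promoters were found for all 9 genes, 12 in number. Capitals mark the FOXO core GTAAACA, searched on both strands, and the carbohydrate response element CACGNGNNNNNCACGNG, likewise searched on both. Neither motif overlaps the other in these windows.
Txnip, chr3:96557707-96557956, plus strand: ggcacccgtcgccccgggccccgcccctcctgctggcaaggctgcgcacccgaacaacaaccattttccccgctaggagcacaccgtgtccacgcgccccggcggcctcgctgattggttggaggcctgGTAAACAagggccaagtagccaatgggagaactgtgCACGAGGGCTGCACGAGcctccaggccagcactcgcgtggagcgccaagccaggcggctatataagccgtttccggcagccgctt
Btg1, chr10:96616751-96617000, plus strand: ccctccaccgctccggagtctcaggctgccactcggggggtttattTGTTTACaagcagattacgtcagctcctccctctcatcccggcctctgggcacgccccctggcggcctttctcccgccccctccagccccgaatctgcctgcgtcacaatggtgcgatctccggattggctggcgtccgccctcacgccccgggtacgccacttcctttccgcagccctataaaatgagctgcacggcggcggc
Rgcc, chr14:79301636-79301885, minus strand: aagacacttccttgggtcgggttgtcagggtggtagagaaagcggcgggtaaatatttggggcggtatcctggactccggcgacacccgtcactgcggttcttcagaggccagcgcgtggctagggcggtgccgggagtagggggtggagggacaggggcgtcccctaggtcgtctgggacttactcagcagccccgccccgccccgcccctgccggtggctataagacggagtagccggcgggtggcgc
In the Txnip promoter the FOXO core begins at -121 and the carbohydrate response element at -85, counted from the annotated start. In the Btg1 promoter the FOXO core lies on the opposite strand, so it reads TGTTTAC here, from -204. Rgcc, the member with the lowest mean ratio, holds neither run of letters in this window. The FOXO core was present in 3.17% of all 32851 RefSeq promoters of this length and in 2 of the 12 member promoters, from 2 of the 9 members. The carbohydrate response element was present in 0.0457% of all promoters and in 1 of the 12 member promoters. A match is a description of letters and not a binding site, and the absence of one says only that these letters are not in the window. By the same annotation Sesn1, Ddit4 and Btg1 lie on chromosome 10, Pik3ip1 and Tob1 on chromosome 11, Btg2 on chromosome 1, Txnip on chromosome 3, Rgcc on chromosome 14 and Tsc22d3 on chromosome X.

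The sort itself was visible on the arrays. Il2rb, which encodes CD122, had normalised intensities of 7346 in CD8+CD122+ cells against 1208 in CD8+CD122- cells on array 1, and 5547 against 1092 on array 2 (log2 ratio 2.47 ± 0.18, SD, n = 2 arrays). The co-receptor genes Cd8a and Cd8b1 were well above background in both populations and lower in CD8+CD122+ cells, at log2 ratios of -0.31 and -0.91 for Cd8a and -0.48 and -0.86 for Cd8b1. With median centring in place of loess both genes turned to 0.18 and 0.23 on array 1. The CD3 chain genes had log2 ratios, with loess, of -0.39 and -0.60 for Cd3g and -0.004 and -0.26 for Cd3d. Cd3e had -0.06 and 0.03 with its brightest probe and -0.20 and -0.15 with the other. Among markers of other cells, 5 of 5 B cell genes, 3 of 4 NK cell genes, 4 of 5 myeloid genes, 3 of 3 dendritic cell genes and 2 of 2 CD4 T cell genes were kept. Ncr1 and Itgam were not. Summed intensities, which include an offset of 50 per probe, were 723 and 803 in CD8+CD122+ cells against 692 and 777 in CD8+CD122- cells on arrays 1 and 2 for NK cell genes. For B cell genes they were 712 and 737 against 746 and 879, for myeloid genes 749 and 1070 against 649 and 975, and for dendritic cell genes 335 and 465 against 326 and 453. CD4 T cell genes summed to 155 and 203 in CD8+CD122+ cells against 150 and 215 in CD8+CD122- cells, and the erythroid gene Hba-a1 had 130 and 1007 against 122 and 915. These sums take the brightest probe of a gene, and among those Lyz2 had log2 ratios of 0.77 and 0.33 and Cd79b -0.20 and -0.76. The dendritic cell gene Itgax had 0.01 and 0.05 with its brightest probe but 0.61 and 1.07 with its other one. The part of other cells in the members' ratios was not tested.

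Rgcc and Tsc22d3 were the members at least 1.5-fold lower in CD8+CD122+ cells on each array, and Rgcc alone of the set passed 2-fold on both. Pik3ip1 was lower on both arrays by less, Ddit4 was far lower on array 2 only, Tob1 was higher on both arrays, and Btg1, Btg2 and Txnip had probes that moved either way. Of the 16 member probes, 7 (from 5 genes) were below 0 on both arrays, where 25.6% of all probes were, and 3 (from 3 genes) were above 0 on both, where 27.8% of all were. The other 6, from Btg1, Btg2 and Txnip, had opposite signs on the arrays, as did 46.6% of all probes. At 1.5-fold on both arrays 3 member probes were lower (0.296% of all) and 0 higher (0.63% of all), and at 2-fold 1 was lower (0.0812% of all) and 0 higher (0.253% of all). Since these ratios chose the genes, nothing is read from the shares. limma's test over all 30794 probes called 0% at an adjusted p under 0.05, with a smallest adjusted p of 0.146 and 1884 probes at an unadjusted p under 0.05. In sorted populations, fewer cells that express a gene and less of its RNA per cell cannot be told apart.

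**Figure D1:**
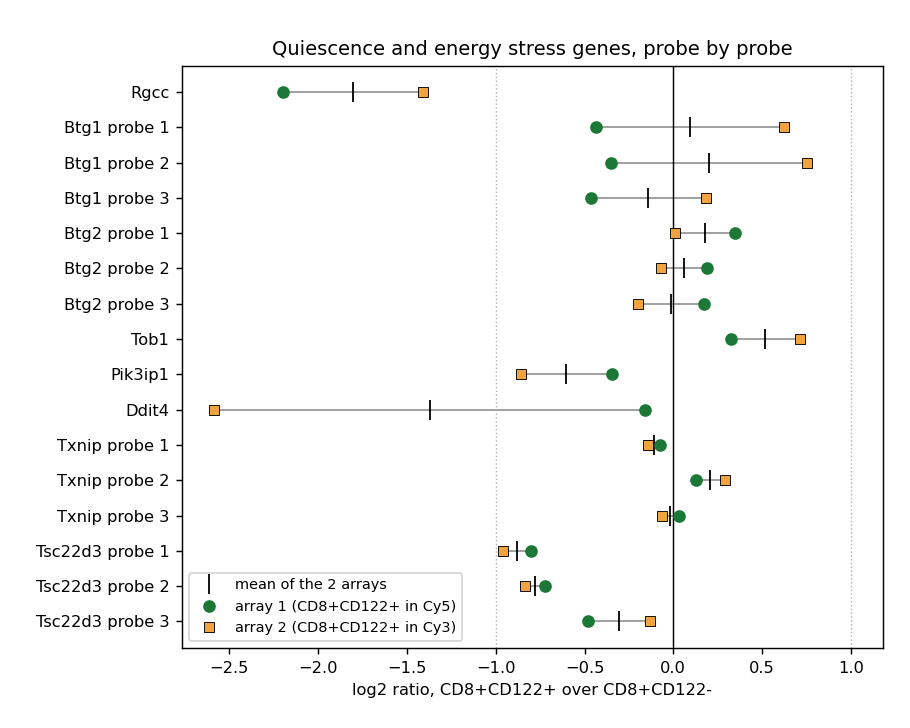
Log2 ratio of CD8+CD122+ over CD8+CD122- for each of the 16 member probes kept, with array 1 as circles, array 2 as squares, the mean as a short bar and 2-fold as dotted lines. Rgcc and the 3 Tsc22d3 probes lie left of 0 on both arrays, Tob1 lies right of it on both, and Ddit4 spans -2.59 on array 2 to -0.16 on array 1.

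Rgcc encodes a cell cycle regulator first described as a gene that responds to complement. Its probe A_51_P226269 had intensities of 750 in CD8+CD122+ cells against 3450 in CD8+CD122- cells on array 1, and 918 against 2440 on array 2. The CD8+CD122+ value was the lower by far on each array. The log2 ratios were -2.20 and -1.41 (mean -1.81 ± 0.56, SD, n = 2 arrays), a level 3.50-fold lower in CD8+CD122+ cells. That was the lowest ratio of all 30794 probes on array 1, the 61st lowest on array 2 and the 4th lowest by mean. Rgcc remained lower by more than 2-fold on each array with median centring, at -1.79 and -1.84.

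Rgcc was set beside 16307 other named genes, each by its brightest probe. The 3 with the most similar pair of ratios, by Euclidean distance over the 2 arrays, were the chemokine receptor gene Ccr9 (log2 ratios -2.0 and -1.54, distance 0.24), Plekho1 (-2.17 and -1.73, distance 0.32) and the integrin gene Itgae (-2.08 and -1.86, distance 0.47). With 2 arrays, closeness by this measure says little. Only 25 of the 30794 probes were at least 2-fold lower on both arrays, so few genes could lie near Rgcc.

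**Figure D2:**
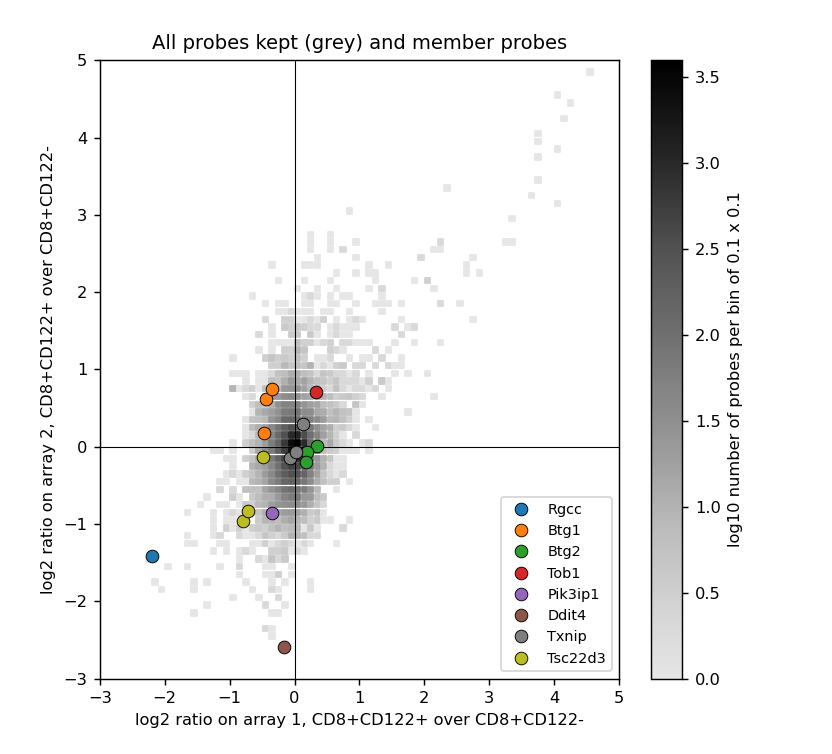
Log2 ratio of CD8+CD122+ over CD8+CD122- on array 2 against array 1 for the 30794 probes kept, as grey bins of 0.1 by 0.1 shaded by the log10 number of probes, with the 16 member probes coloured by gene. Rgcc (-2.20, -1.41) sits at the left edge of all probes and Ddit4 (-0.16, -2.59) at the lower edge.

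Of the antiproliferative genes of the BTG and TOB family, Tob1 had ratios above 0 on each array, and the mean ratios of Btg1 and Btg2 were smaller than their spread. Btg1, which with Btg2 is known to keep naive T cells quiescent in mice, had 3 probes that were lower in CD8+CD122+ cells on array 1 and higher on array 2. Probe A_51_P288193 had 4977 in CD8+CD122+ cells against 6743 in CD8+CD122- cells on array 1, and 14830 against 9628 on array 2 (log2 ratios -0.44 and 0.62). Probe A_52_P436258 had 336 against 428 on array 1 and 653 against 388 on array 2 (-0.35 and 0.75), and the expressed sequence tag probe A_52_P67463 had 153 against 212 and 394 against 348 (-0.46 and 0.18). The 3 probes thus changed direction together with the array. Averaged over its probes, the log2 ratio of Btg1 was 0.05 ± 0.66 (SD, n = 2 arrays), so the difference was smaller than the spread. The difference between arrays was 1.06, 1.1 and 0.65 on the log2 scale for the 3 probes, where the median over all probes was 0.117 and the 95th percentile 0.675. With median centring the bright probe A_51_P288193 was higher on both arrays (0.12 and 0.14), the tag probe was lower on both (-0.28 and -0.13), and A_52_P436258 kept opposite signs (-0.08 and 0.40). Dye and trial changed together between the arrays, so their parts in this cannot be told apart.

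Btg2 is a target of p53 and the closest relative of Btg1. Its probe A_52_P31543 had 777 in CD8+CD122+ cells against 610 in CD8+CD122- cells on array 1, and 654 against 649 on array 2 (log2 ratios 0.35 and 0.01). The log2 ratios of A_52_P925197 were 0.19 on array 1 and -0.07 on array 2, and those of A_52_P35217 were 0.17 and -0.20. All 3 probes leaned to CD8+CD122+ cells on array 1, while on array 2 the first was near 0 and the others leaned the other way. The mean over probes was 0.08 ± 0.23 (SD, n = 2 arrays), again smaller than the spread. With median centring A_52_P31543 had 0.68 on array 1 and -0.36 on array 2.

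Tob1, known as a brake on T cell proliferation, was the member with the highest mean ratio. Its probe A_51_P293339 had 220 in CD8+CD122+ cells on each array, against 176 in CD8+CD122- cells on array 1 and 134 on array 2. The CD8+CD122+ value was the higher on each array. The log2 ratios of 0.32 and 0.71 (mean 0.52 ± 0.27, SD, n = 2 arrays, 1.43-fold) placed it at the 98.4th percentile of all probes by mean, and median centring gave 0.52 and 0.53. The scanner's own processed signals, which carry no offset, gave larger ratios of 0.44 and 1.02. In brightness the probe lay at the 66.9th percentile of the probes kept.

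**Figure D3:**
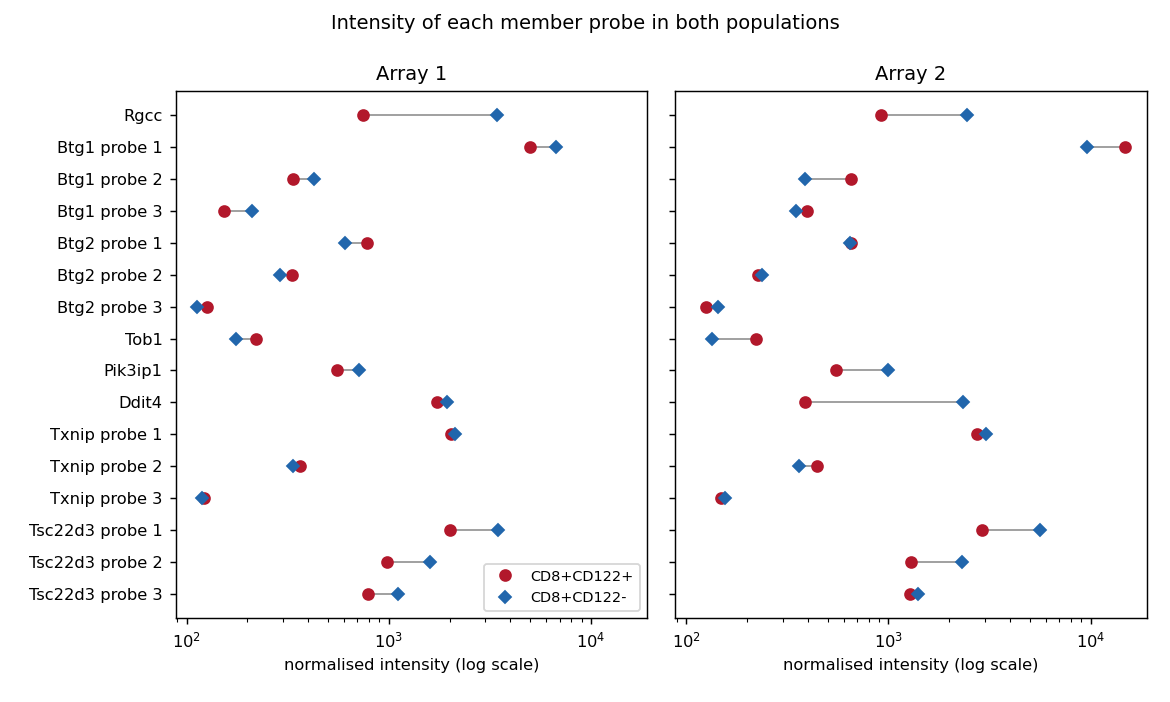
Normalised intensity on a log scale of each member probe in CD8+CD122+ cells (circles) and CD8+CD122- cells (diamonds), array 1 on the left and array 2 on the right, to be compared within a row and an array only. The line between the symbols is longest for Rgcc on array 1 (750 against 3450) and for Ddit4 on array 2 (388 against 2335).

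Of the genes that restrain growth signalling, Pik3ip1 and Ddit4 had ratios below 0 on both arrays, of very different size. Pik3ip1 encodes a transmembrane inhibitor of phosphoinositide 3-kinase. Its probe A_51_P463428 had 558 in CD8+CD122+ cells against 710 in CD8+CD122- cells on array 1, and 548 against 994 on array 2. The CD8+CD122+ value was the lower on each array, by more on array 2. The log2 ratios were -0.35 and -0.86 (mean -0.60 ± 0.36, SD, n = 2 arrays, 1.52-fold lower), which ranked 903rd and 362nd from the lowest. Median centring left -0.02 on array 1 and -1.25 on array 2, where the medians over all 16315 genes were 0.13 and -0.16. How far below 0 Pik3ip1 lay on array 1 thus depended on the dye correction.

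Ddit4, also called REDD1, is induced by hypoxia, glucocorticoids and energy depletion and inhibits mTORC1 through the TSC complex. Its probe A_51_P245796 had 1737 in CD8+CD122+ cells against 1937 in CD8+CD122- cells on array 1, and 388 against 2335 on array 2. The populations were close to each other on array 1 and far apart on array 2. The log2 ratio was -0.16 on array 1 and -2.59 on array 2, the lowest of all 30794 probes there and 3578th from the lowest on array 1. The mean of -1.37 ± 1.72 (SD, n = 2 arrays) was smaller than its spread, and the difference of 2.43 between arrays was the 4th largest of all probes. With median centring the sign turned on array 1 (0.27) and not on array 2 (-2.99). Without array 2, which decides this value, Ddit4 was 1.12-fold lower in CD8+CD122+ cells.

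The immediate early gene Fos, whose RNA rises quickly when cells are stimulated or handled, was also far lower on array 2 only. Fos had 1240 in CD8+CD122+ cells against 1009 in CD8+CD122- cells on array 1, and 403 against 1462 on array 2 (log2 ratios 0.30 and -1.86). The early gene Ier3 also turned, from 0.82 on array 1 to -0.97 on array 2, whereas the ratio of Nr4a1 was above 0 on both. Jund and Atf3 moved opposite to Fos, from -0.01 and 0.28 on array 1 to 0.93 and 1.47 on array 2. Across the 15 immediate early and handling genes the median log2 ratio was 0.28 on array 1 and -0.06 on array 2, where the medians over all 16315 genes were 0.01 and -0.01. The part of handling in the Ddit4 values was not tested.

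Sesn1 encodes a sestrin, a p53 target that restrains mTORC1 when leucine is scarce. Its probe A_51_P119882 was not well above background in either population on either array, so no ratio is given. Its relatives were measured. The brightest Sesn2 probe had log2 ratios of -0.13 and -0.20 and the other -0.06 and 0.01. The brightest Sesn3 probe had -0.06 and -0.68, while the other Sesn3 probes gave -0.29 and 0.50, and -0.10 and 0.01.

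Txnip, an arrestin that binds thioredoxin and limits glucose uptake, was about equal in the 2 populations. Its probe A_51_P438805 had 2029 in CD8+CD122+ cells against 2134 in CD8+CD122- cells on array 1, and 2759 against 3051 on array 2 (log2 ratios -0.07 and -0.14). Probe A_51_P197745 leaned the other way, with 365 against 335 and 442 against 361 (0.13 and 0.29), and A_52_P420792 lay near 0 (0.03 and -0.07). The mean over probes was 0.03 on each array, with probe means between -0.11 and 0.21, so the probes disagreed by more than the arrays did. With median centring A_51_P438805 had 0.37 on array 1 and -0.59 on array 2.

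Tsc22d3, known as glucocorticoid-induced leucine zipper, was lower in CD8+CD122+ cells by each of its 3 probes and on each array. Probe A_51_P235816 had 2005 in CD8+CD122+ cells against 3488 in CD8+CD122- cells on array 1, and 2909 against 5653 on array 2 (log2 ratios -0.80 and -0.96). Probe A_51_P235821 had 975 against 1608 on array 1 and 1292 against 2301 on array 2 (-0.72 and -0.83). Each of these was at least 1.5-fold lower on each array, and A_51_P235816 ranked 87th and 253rd from the lowest. Probe A_52_P600518 was also lower but by less, with 794 against 1108 and 1277 against 1400 (-0.48 and -0.13). The mean over probes was -0.65 ± 0.02 (SD, n = 2 arrays, 1.57-fold lower). That small SD arose from shifts between the arrays that cancelled over the probes (array 2 minus array 1: -0.16, -0.11 and 0.35). Probe by probe the SDs were 0.11, 0.08 and 0.25, and the probe means ran from -0.88 to -0.31. Median centring kept every Tsc22d3 probe below 0, yet moved the brightest to -0.33 on array 1 and -1.42 on array 2, so that no Tsc22d3 probe then passed 1.5-fold on both arrays.

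Over the members the size of the median ratio turned on how probes were counted. Probe by probe the median log2 ratio was -0.25 on array 1 and -0.10 on array 2, and that of the 2-array means -0.06, where the medians over all 30794 probes were 0.005, 0.001 and 0.003. With 1 value for each of the 8 genes the median of the means was -0.36 by the brightest probe and -0.29 by the mean over probes. On each array 10 of the 16 member probes (62.5%) were below 0, where 48.0% of all probes were on array 1 and 49.8% on array 2. With median centring the medians over all 16315 genes were 0.13 on array 1 and -0.16 on array 2. Bright genes could move further than that. Cd8b1, at the 99.7th percentile of brightness, went from -0.48 to 0.23 on array 1 and from -0.86 to -1.37 on array 2. Median centring leaves any trend of the ratio with brightness in place, so these medians are no full reference for the bright probes above.

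Partner genes of the same pathways were described by their brightest probe. Over all 16315 named genes, 25.4% had ratios below 0 and 28.3% above 0 on both arrays, and 0.447% were lower and 0.913% higher by at least 1.5-fold. Among partners of BTG and TOB proteins and the CCR4-NOT complex, 2 of 18 were lower and 4 higher on both arrays, with a median of -0.01. The brightest probes of Btg3 and Tob2 were near 0 on array 1 (0.06 and 0.07) and higher on array 2 (1.34 and 1.07), the array on which Btg1 was higher too, and the other Tob2 probe had -0.37 and 0.73. In the list of sestrins, TSC and mTORC1 control, 12 of 28 genes were lower and 3 higher, with a median of -0.10, and 0 passed 1.5-fold. With median centring the counts of this list were 4 and 2, as the counts over all genes fell to 2052 lower and 2422 higher.

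The energy sensor AMPK and its regulators showed 3 of 11 genes lower and 2 higher on both arrays (median -0.01). Phosphoinositide 3-kinase and AKT genes showed 6 of 16 lower and 5 higher (median -0.01). FOXO factors, their targets and other quiescence factors showed 6 of 14 lower and 5 higher (median -0.10), among them the repressor gene Bcl6, at log2 ratios of -0.47 and -1.14. No gene of these 3 lists passed 1.5-fold on both arrays in either direction with the offset of 50 and loess. Bcl6 did so, as lower, with no offset (-0.62 and -1.34) and with the processed signals (-0.64 and -1.38), and the transcription factor gene Klf4 did so, as higher, with median centring (0.67 and 1.22).

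In the remaining lists the genes that passed 1.5-fold on both arrays were all on the side of CD8+CD122+ cells. Among thioredoxin, alpha-arrestin and glucose uptake genes, 3 of 14 were lower and 5 higher. Slc2a1, which encodes the glucose transporter whose surface level Txnip lowers, had 1192 in CD8+CD122+ cells against 687 in CD8+CD122- cells on array 1, and 2492 against 879 on array 2 (log2 ratios 0.80 and 1.5, mean 1.15 ± 0.50, SD, n = 2 arrays). The TSC22 family and glucocorticoid response genes showed 2 of 8 lower and 4 higher. The glucocorticoid-induced kinase gene Sgk1 was higher on both arrays (1.01 and 0.67), while the receptor gene Nr3c1 had 0.08 and 0.01 by its brightest probe. Fkbp5, another glucocorticoid response gene, had -0.09 and 0.01 by its brightest probe. Its other probes were below 0 on both arrays, at -0.04 and -0.18, and at -0.06 and -0.24. Klf9 of the same list was above 0 on both arrays by each of its probes. It had 0.05 and 0.48 by the brightest, and 0.41 and 0.97, and 0.03 and 0.18, by the others. Per1, also of this list, had -0.26 and 1.73. Stress response genes of p53 and ATF4 showed 1 of 12 lower and 7 higher. Gadd45b, a stress-inducible gene of the Gadd45 family, had 0.72 and 1.49 with its brightest probe and 0.34 and 0.75 with the other. Of the immediate early and handling genes 2 of 15 were lower and 5 higher. Nr4a1, an orphan nuclear receptor gene induced by antigen receptor signalling, had 0.91 and 1.87, and Ier2 had 0.66 and 0.76 with its brightest probe but 0.12 and -0.06 with the other. Slc2a1, Gadd45b and Nr4a1 stayed above 1.5-fold on both arrays with median centring, whereas Sgk1 (0.24 on array 2) and Ier2 (0.33 on array 2) did not. Atf3, a stress-induced transcription factor gene, had 0.28 and 1.47 and passed 1.5-fold on both arrays only with no offset (0.69 and 2.25) or with the processed signals or the deposited table.

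**Figure D4:**
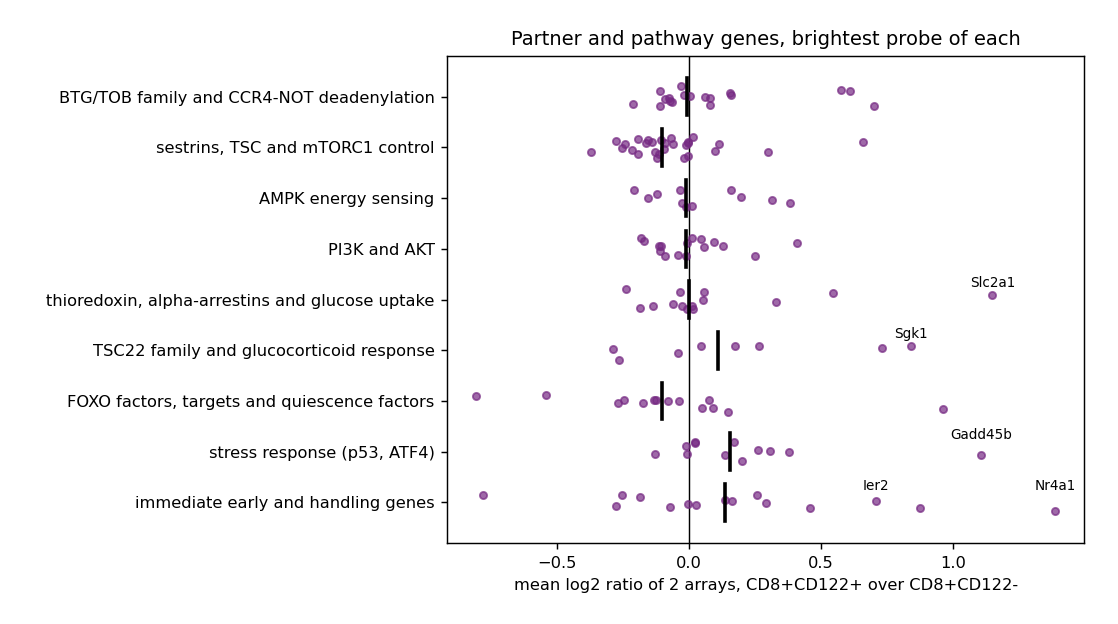
Mean log2 ratio of the 2 arrays, CD8+CD122+ over CD8+CD122-, for the brightest probe of each partner gene in 9 lists, with the list median as a black bar. The 5 genes at least 1.5-fold higher on both arrays are named, from Ier2 at 0.71 to Nr4a1 at 1.39, and at this offset of 50 no gene was 1.5-fold lower on both, although Bcl6 was with no offset.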

How the data were processed

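Amplified messenger RNA of CD8+CD122+ and CD8+CD122- cells shared each of 2 two-colour Agilent arrays. The deposited scanner files hold spot and background intensity values, 0 or 1 flags, processed signals and, per spot, the log10 of Cy5 over Cy3. They were made with Agilent Feature Extraction 7.5.1 (array 1, written with a leading A) and 8.1.1.1 (array 2), per the file headers. Each array has 43790 spots, 2256 of them controls. Of the other spots 76.4% were well above background in CD8+CD122+ and 69.5% in CD8+CD122- on array 1, and 80.2% and 83.4% on array 2. The deposited value table holds log10 ratios too. On array 2 it equals the scanner ratio, and on array 1 its negative, for 100% of values (tolerance 1e-04). Both its columns thus run CD8+CD122- over CD8+CD122+, opposite to the direction used here. Each column has a median of 0. Whether it was centred, and the genome build, are not given in the sources used here.

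Mean intensities were corrected with normexp (offset 50) and ratios normalised by loess within each array, controls at weight 0 (limma 3.58.1, R 4.3.3). Every member probe has 1 spot. The offset shrinks ratios of dim probes. RefSeq named 32016 of 41174 probes, and 9158 stayed unnamed. Member names matched 7 probes in the file of array 1 and 17 in that of array 2.

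The members and lists were chosen with earlier results of these data known. Named genes were all members, the partner genes at least 1.5-fold apart on both arrays, and the 3 genes nearest to Rgcc. Bcl6, Btg3, Tob2, Sesn2, Sesn3, Fos, Jund, Ier3, Nr3c1, Fkbp5, Klf9, Klf4, Atf3, Lyz2, Cd79b and Itgax were chosen after their values were seen. So were the genes under other observations. limma (lmFit, eBayes, 1 residual degree of freedom, Benjamini-Hochberg) gave the whole-table background, and its steps were tested on simulated data. Each array is its own scan, so no batch term was possible. Alternatives were other background corrections, median centring, processed signals, the value table, other filters, 1 value per gene and each array alone.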

Additional observations from a re-analysis of the deposited data

How the results depend on the processing

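The count of member probes lower on both arrays was 7, and 4 when each of the 8 genes was the mean of its probes. From 1 array alone the count of probes above 0 was 6 with either array, against 3 on both arrays, and the count below 0 was 10 with either array (48.0% and 49.8% of all probes were below 0 on arrays 1 and 2). The median log2 ratio of the 16 probes, -0.06, ran between -0.25 and -0.10 with 1 array left out. It was -0.36 with the brightest probe per gene and -0.29 with the mean over the probes of a gene, each over 8 genes. Txnip turned from 0.03 to -0.11 with its brightest probe, since its 3 probes disagree. At 1.5-fold on both arrays the 3 lower member probes became 1 with median centring. Over all 16315 genes the count of lower genes went from 73 to 51. From array 2 alone 5 member probes were 1.5-fold lower and 2 were 2-fold lower. Shares of all probes were not counted for 1 array alone. Ratios spread wider on array 2 (SD over all probes 0.32, against 0.21 on array 1), so nothing is read from these counts. Over all settings, ratios ran from -2.20 to -1.41 for Rgcc, -2.59 to -0.16 for Ddit4 and -0.88 to -0.64 for Tsc22d3. The ends for Rgcc and Ddit4 each came from 1 array alone. Means of the 2 arrays ran from -1.86 to -1.78 for Rgcc, -1.46 to -1.32 for Ddit4 and -0.88 to -0.65 for Tsc22d3. limma called 0 probes in each of 5 settings. Leaving out the expressed sequence tag probe of Btg1, an alternative chosen after seeing the data, kept the counts at 7 and 3 with a median of -0.02. Every ratio is a pair within an array. A further replicate block was not possible because the 2 arrays form 1 group. The offset made the ratios of Tob1 smaller, the offset and the distance from background limit what dim probes can show, and Sesn1 could not be measured.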

Other observations

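Some partner genes short of the size rule stood on the same side on both arrays. They were chosen after their values were seen. Cnot6l, a deadenylase subunit gene, had log2 ratios of CD8+CD122+ over CD8+CD122- of 0.52 and 0.70 on arrays 1 and 2 with its brightest probe and 0.45 and 0.13 with the other. Txn1, the thioredoxin that Txnip binds, had 1947 in CD8+CD122+ cells against 1394 in CD8+CD122- cells on array 1, and 3130 against 2055 on array 2 (0.48 and 0.61), and its reductase gene Txnrd1 had 0.27 and 0.38. Vsir, which encodes the checkpoint protein VISTA, known for holding naive T cells quiescent in mice, had 507 in CD8+CD122+ cells against 815 in CD8+CD122- cells on array 1, and 616 against 812 on array 2 (-0.68 and -0.40). Klf2 and Foxo1, transcription factor genes of resting T cells, turned with the array by their brightest probes, at -0.62 and 0.46 for Klf2 and -0.40 and 0.15 for Foxo1. Their other probes did not turn, at -0.08 and -0.07 for Klf2 and -0.18 and -0.17 for Foxo1. The brightest probes had 0.02 and -0.04 (Klf2) and 0.05 and -0.28 (Foxo1) with median centring. Klf2 then lay near 0 on both arrays and Foxo1 turned the other way. The clock gene Per1, with 1 probe, turned at -0.26 and 1.73, but had 0.01 and 1.36 with median centring.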
